A study of Hordeum vulgare with 12 samples.

Results

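Heat shock proteins (HSPs) and heat stress transcription factors (HSFs) were examined in crowns of barley (Hordeum vulgare, cultivar Golden Promise) during the first hours after an auxin treatment that starts crown-root formation. The genes were chosen by their deposited descriptions. A gene was taken when its description held "heat shock", "heat-shock" or "heat stress" and not DnaJ, and when at least 10 reads were counted in at least 3 of the 12 libraries. Of 63658 genes in the count table, 201 had such a word, 38 of these were DnaJ genes, 163 met the description rule and 102 also had enough reads. The other 61 had too few reads, and 32 of them had no read in any library. At the edge of the rule, the HSP70 gene 7HG0610690.1 was taken with 3 libraries at the minimum, and 4 genes with 2 such libraries were left out. All 102 genes passed the filter for testing, so none is missing from the tests, and 81 of them reached 10 reads in all 12 libraries. Gene identifiers are written without their shared prefix HORVU.MOREX.r2.

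All seedlings had been grown with 50 µM NPA, which blocks polar auxin transport and holds back crown roots. Crowns, the 2 mm junction of root and stem, were collected from such seedlings on NPA (0 h) or at 30 min, 1 h or 3 h after their transfer to 50 µM 1-NAA, a synthetic auxin. Each time has 3 libraries that the labels call independent biological replicates, and each library is a pool of 5 crowns of 1 cultivar. No crowns kept on NPA or given a fresh solution without auxin stand beside the 3 later times. Auxin, NPA removal, handling, the new solution and clock time therefore moved together and cannot be told apart in any comparison with 0 h. The 3 comparisons with 0 h also share the same 3 control libraries.

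HSFs bind heat shock elements in promoters and switch on chaperone genes when unfolded proteins build up. In plants class A HSFs carry an activating domain, while most class B HSFs act as repressors or co-regulators. Their products divide the work: small HSPs hold unfolding proteins in a soluble state, HSP70 with its DnaJ partners refolds them, HSP100 (ClpB) pulls aggregates apart, and HSP90 matures signalling proteins, among them the auxin receptor TIR1 in Arabidopsis. Members of each family are also made in unstressed tissue, and many small HSP genes are close to silent until a stress comes. In bulk tissue, more RNA per cell and more cells with the RNA cannot be told apart.

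By their own descriptions or those of their Arabidopsis, rice and maize homologs, the 102 genes comprised 25 HSFs (14 of class A, 5 of class B, 5 of class C and 1 unplaced), 3 HSP90, 24 HSP70 and 37 small HSP genes. A further 4 were co-chaperones or regulators and 9 were described as heat shock proteins without a class. HSP100 genes are described in these files as ClpB and did not fall under the rule. The small HSPs held 13 genes of the cytosolic class I, 6 of class II, 7 mitochondrial and 2 chloroplast genes. The rest were 1 peroxisomal, 1 class V and 1 class VI gene, 4 genes whose homolog was AT2G27140 and 2 unplaced genes.

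The libraries held 16093892 to 34019480 reads assigned to genes, which were 56% to 78.4% of all reads. The 102 genes took 0.982% (replicate 3 at 1 h) to 1.52% (replicate 1 at 30 min) of the assigned reads. Values below are CPM, the usual library-size scaling of read counts, with library sizes adjusted by TMM, unless stated otherwise, and 3 reads correspond to 0.0882 to 0.186 CPM. As a check of the tissue, the 13 genes described as KNOX, a family of which some members mark shoot meristems, summed to 198 to 296 CPM. The 12 grain storage genes summed to 0.784 to 2.44 CPM. The 35 genes for chlorophyll a-b binding proteins, which mark green tissue, summed to between 4103 and 5249 CPM at 0 h, 3373 and 4017 CPM at 30 min, 3316 and 4379 CPM at 1 h and 2563 and 2933 CPM at 3 h, and 17 of the 31 of them that were tested were called lower at 3 h than at 0 h. Their part in the results below was not tested.

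The libraries of replicate 3 stood apart in these genes. In replicates 1 and 2, many small HSP genes, a class A HSF, an HSP90 gene and some HSP70 genes were several times higher at 30 min and 1 h than at 0 h, while replicate 3 held them near the level of 0 h. With log2 CPM compared between libraries of the same replicate number, 37 of the 102 genes were more than 1 higher at 30 min than at 0 h in replicate 1 and 39 in replicate 2, but 5 in replicate 3. Over all 24920 genes tested the shares past this difference were 4.96%, 5.24% and 1.94%. At 1 h the counts were 34, 32 and 2, against 7.13%, 5.01% and 2.14% of all genes. At 3 h they were 15, 27 and 3, against 6.06%, 5.71% and 3.88%. In total 34 genes passed this difference at 30 min in both replicate 1 and replicate 2, and 4 of these also did in replicate 3. The assigned share of reads at 30 min was 64.8%, 78.4% and 78.3% in replicates 1, 2 and 3, and at 1 h 78.0%, 73.2% and 78.4%. What set replicate 3 apart was not tested, and the lead counts below are therefore given with and without each replicate number.

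**Figure D1:**
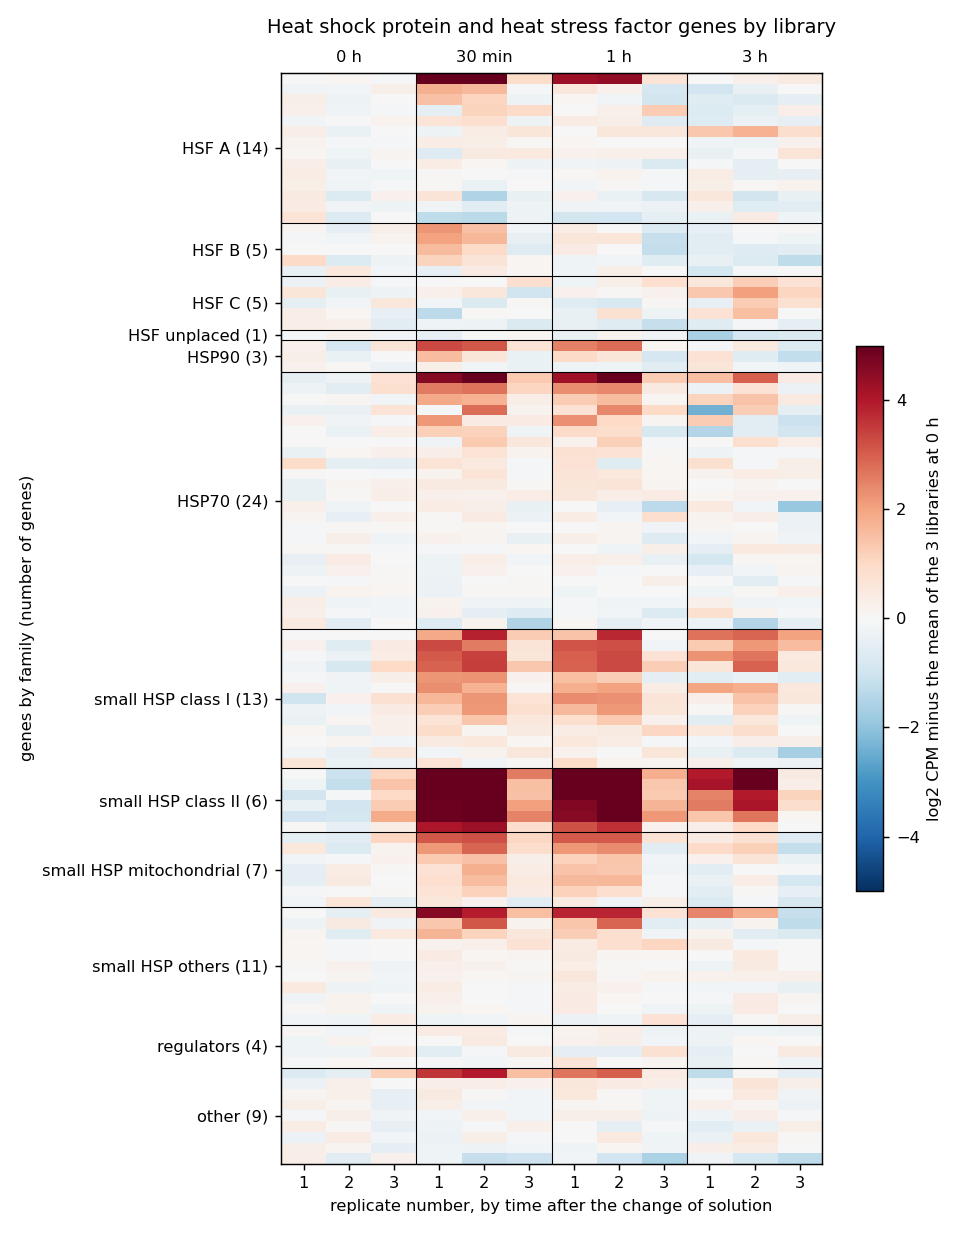
Log2 CPM of each of the 102 genes (rows, by family) in each of the 12 libraries (columns, by time and replicate number), minus the gene's mean over the 3 libraries at 0 h. Red cells, higher than at 0 h, gather in the small HSPs and a few HSF, HSP90 and HSP70 genes in replicates 1 and 2 at 30 min and 1 h, and are pale in replicate 3; differences beyond 5 have the colour of 5.

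The comparison of 30 min with 0 h asks which of these genes moved first. By the quasi-likelihood test of edgeR, with p adjusted over all genes tested (Benjamini-Hochberg), 0 of the 102 passed an adjusted p of 0.05, where 0.00401% of all genes (1 gene) did. At an unadjusted p under 0.05 stood 33 of the 102, all of them higher, against 4.39% of all genes in either direction and 3.42% higher. Of these 33 genes 23 were small HSPs, 5 HSFs, 3 HSP70, 1 HSP90 and 1 without a class. DESeq2 called 10, all higher, of which 5 were class II small HSPs, and 0.385% of all genes. The median log2 fold change was 0.31 over the 102 genes and -0.01 over all genes tested, and it was 1.13 for small HSPs, 0.19 for HSP70 and 0.19 for HSFs. A log2 fold change above 1 was found for 32 of the 102 (31.4%) against 2.38% of all genes. All 3 libraries at 30 min lay above all 3 at 0 h for 27 of the 102 (26.5%), among them 20 of 37 small HSPs, against 4.68% of all genes. Some genes close to the floor at 0 h met the read rule only through later times. Among them were 2HG0141160.1, 3HG0186750.1, 3HG0252650.1 and 3HG0197320.1. Their part in these counts, and in those at 1 h and 3 h, is no support for a rise. Without replicate 3 of all 4 times, an alternative added after the data were seen, 15 genes were called, all higher, against 0.0849% of all genes; leaving out replicate 3 removes the libraries in which the genes were low. Without replicate 1 edgeR called 0 (16 unadjusted), and without replicate 2 also 0 (10 unadjusted), and no other gene in either. A fit with the number as a block called 0, with 37 genes at an unadjusted p under 0.05.

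**Figure D2:**
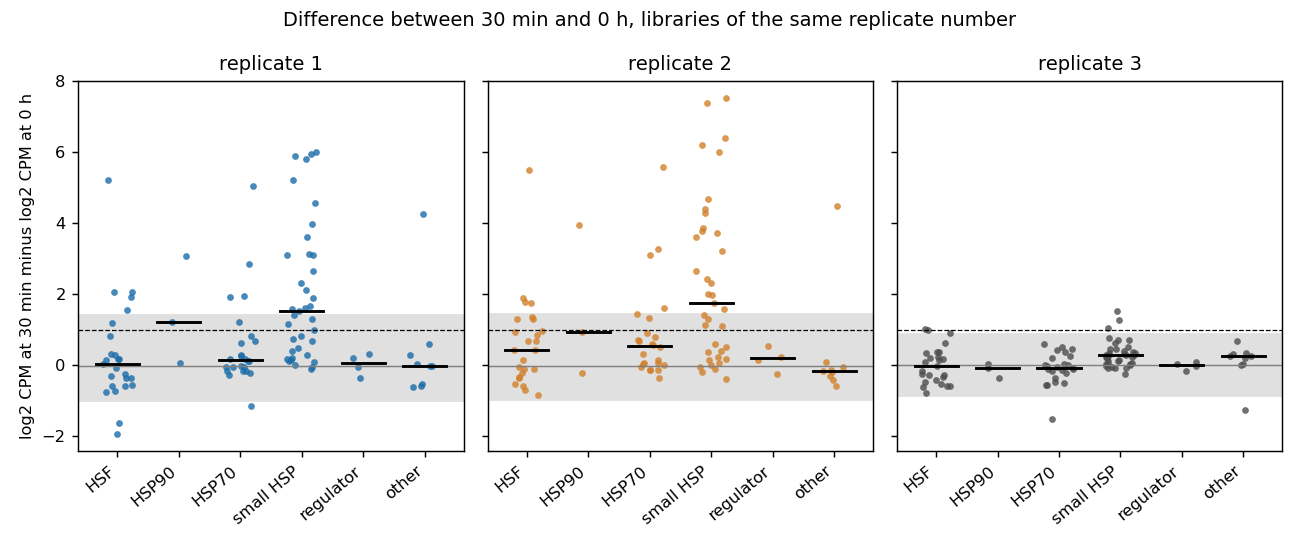
Difference in log2 CPM between 30 min and 0 h for libraries of the same replicate number, for each of the 102 genes (points) by family, with the family median (black bar). The grey band holds the middle 95% of all 24920 genes tested, the grey line is their median and the dashed line marks a difference of 1; points above the band are frequent in replicates 1 and 2 and few in replicate 3.

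Among the HSFs, which are the switches of the response, 1 gene stood out. The class A gene 5HG0423600.1 (chromosome 5H, 534572494 to 534573686, minus strand) has as its first rice homolog a gene described as heat stress transcription factor A-2b, and A2 factors prolong the heat response in Arabidopsis. It was at 1.09, 1.14 and 0.990 CPM in replicates 1, 2 and 3 at 0 h and had 43.6, 55.2 and 2.10 CPM at 30 min. The 1 h libraries had 22.1, 24.6 and 1.76 CPM, those of 3 h 1.06, 1.30 and 1.49 CPM. All 3 libraries at 30 min lay above all 3 at 0 h, replicate 3 by far less than the other two, and at 3 h the 3 libraries were close to 0 h again. It fell from 30 min to 3 h (log2 fold change -4.70 ± 1.102, SE, adjusted p = 0.0464, edgeR; lower in 3 of 3 replicates) and was called over the time course (adjusted p = 0.0447). Its log2 fold change at 30 min against 0 h was 4.96 ± 1.12 (SE) with an adjusted p of 0.416 (edgeR). Without replicate 3, which removes its low libraries, the adjusted p was 0.00124. With any other library or replicate number left out it was not called at 30 min. Its log2 fold change then ranged over all leave-outs from 4.40 to 5.52.

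The unplaced HSF gene 2HG0098740.1 (chromosome 2H, 68547234 to 68549410, minus strand) took another course. It stood at 22.3, 26.9 and 21.6 CPM at 0 h, 17.6, 23.0 and 24.9 CPM at 30 min, 18.2, 26.5 and 20.6 CPM at 1 h and 7.59, 12.7 and 14.4 CPM at 3 h. The first 3 times overlapped, and all 3 libraries at 3 h lay below the other 9. It was the 1 gene of the 102 called at 3 h against 0 h (log2 fold change -1.03 ± 0.237, SE, adjusted p = 0.0441), where 2.48% of all genes were called, and replicate 3 took part in this change. In the blocked fit its adjusted p was 0.00344 against 0 h, and it was also called lower at 3 h against 30 min and 1 h. Without each single library or replicate number in turn its adjusted p ranged from 0.0425 to 0.414.

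Class B HSFs had their highest level at 30 min. All 5 had their highest mean at 30 min, where 19.99% of all genes did. At 3 h against 30 min 4 of the 5 were called lower by DESeq2, 1 by edgeR with the replicate block and 0 by edgeR without it. These 3 fits called 5.49%, 6.36% and 2.68% of all genes, higher or lower. Their summed level was 75.1, 76.0 and 73.1 CPM at 0 h, 193, 161 and 63.8 CPM at 30 min, 87.0, 91.0 and 47.2 CPM at 1 h and 47.5, 62.6 and 60.6 CPM at 3 h. Replicates 1 and 2 at 30 min lay above the other 10 libraries and replicate 3 lay below its own 0 h. At 1 h the class B sum was below that at 30 min in all 3 replicates. The 5 genes of the 102 with an unadjusted p under 0.05 between 1 h and 30 min were all HSFs and all lower, where 2.95% of all genes passed and 1.59% were lower. No gene was called in that comparison by edgeR, among the 102 or among all genes; DESeq2 called 0 of the 102 and 0.1% of all genes. The class B gene 5HG0402900.1, whose first Arabidopsis homolog is described as heat stress transcription factor B-1, was at 16.0, 4.99 and 6.82 CPM at 0 h, 17.7, 12.9 and 8.77 CPM at 30 min, 7.12, 7.36 and 5.35 CPM at 1 h and 6.21, 5.11 and 3.38 CPM at 3 h. Its replicate 1 was already high at 0 h, and its log2 fold change from 30 min to 3 h was -1.42 ± 0.413 (SE, adjusted p = 0.111; 0.00923 with the replicate block).

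Class C HSFs, which lack the activating domain of class A, had their highest mean at 3 h in 4 of 5 genes, against 29.8% of all genes. None was called in any comparison by edgeR. The fifth, 7HG0595920.1, the class C gene with the highest level per length, was at 42.7, 40.4 and 22.8 CPM at 0 h and at 26.3, 22.4 and 15.4 CPM at 1 h, with a log2 fold change of -0.72 ± 0.270 (SE, adjusted p = 0.792). The class C gene 4HG0348600.1 was at 1.42, 1.75 and 2.94 CPM at 0 h and 1.43, 4.79 and 3.38 at 3 h, and these overlapped. Among class A genes, the A-2c and A-6b homolog 4HG0334780.1 was at 13.5, 9.40 and 10.9 CPM at 0 h, 30.9, 23.6 and 9.27 at 30 min and 7.32, 6.81 and 8.13 at 3 h. Its replicates 1 and 2 were the 2 highest of its 12 libraries and replicate 3 was not higher than at 0 h. The change from 30 min to 3 h was -1.51 ± 0.381 on the log2 scale (SE, adjusted p = 0.0628; 0.0209 with the replicate block). The class A genes 1HG0067240.1 and 3HG0239810.1, both with an A-4 type rice homolog, and the gene 4HG0314550.1, described as A3, changed by less than 0.5 on the log2 scale in each of the 6 comparisons. The class A sum was 182, 135 and 153 CPM at 0 h, 269, 255 and 147 CPM at 30 min, 184, 182 and 125 CPM at 1 h and 155, 128 and 146 CPM at 3 h. Replicates 1 and 2 at 30 min lay above the other 10 libraries, and replicate 3 at 30 min lay within the range of 0 h.

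Of the 3 HSP90 genes 1 was low at 0 h and 2 were abundant. The gene 2HG0082310.1 (chromosome 2H, 9591121 to 9593401, plus strand), with HSP90-1 as its first Arabidopsis homolog, was at 6.37, 3.01 and 8.60 CPM at 0 h, 54.1, 48.1 and 8.81 CPM at 30 min, 32.1, 38.2 and 5.89 CPM at 1 h and 5.25, 7.71 and 3.42 CPM at 3 h. In replicates 1 and 2 both early times lay well above 0 h and 3 h, and in replicate 3 they did not. Its log2 fold change was 2.62 ± 0.749 (SE, adjusted p = 0.692) at 30 min against 0 h and -2.76 ± 0.754 (SE, adjusted p = 0.0879; 0.0360 with the replicate block) at 3 h against 30 min. The most abundant HSP90, 5HG0406220.1, had 4011, 3643 and 2843 CPM at 0 h and 4197, 3122 and 2721 at 30 min, and these overlapped (log2 fold change -0.06 ± 0.233, SE, adjusted p = 1). Per kilobase of coding length it was the highest of all 102 genes, with a mean of 1588 CPM per kilobase. The third, 7HG0563130.1, had 1047, 675 and 856 CPM at 0 h and 2437, 1303 and 669 at 30 min, with replicates 1 and 2 above and replicate 3 below its 0 h library. HSP90 made up 36% and HSP70 51.8% of the summed CPM of the 102 genes, and small HSPs 5.34%.

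HSP70 genes also differed among themselves. The gene 1HG0059310.1 (chromosome 1H, 465834321 to 465837220, plus strand) was at 56.6, 46 and 118 CPM at 0 h, 412, 448 and 142 CPM at 30 min, 334, 356 and 92.1 CPM at 1 h and 55.6, 113 and 54.8 CPM at 3 h. Replicate 3 began at the highest level of the 3 at 0 h and ended lowest at 30 min and 1 h. Its log2 fold change was 2.18 ± 0.584 (SE, adjusted p = 0.630) at 30 min against 0 h. The gene 3HG0252650.1 was close to the floor at 0 h with 0.257, 0.305 and 0.679 CPM, and reached 11.2, 18.2 and 1.07 CPM at 30 min (log2 fold change 4.51 ± 1.20, SE, adjusted p = 0.626). The more abundant 4HG0322690.1 had 385, 316 and 500 CPM at 0 h, 903, 862 and 339 at 30 min and 141, 275 and 208 at 3 h, and all 3 libraries at 3 h lay below all 3 at 0 h, without passing the test (log2 fold change at 3 h -0.94 ± 0.459, SE, adjusted p = 0.536). The 2 HSP70 genes with the highest level per length changed little. 5HG0437610.1 had 1989, 2736 and 2553 CPM at 0 h and 1940, 2512 and 2523 at 30 min, and 5HG0365810.1 had log2 fold changes between -0.27 and 0.10 over the 6 comparisons. In all, 13 of 24 HSP70 genes had log2 fold changes within 0.5 in all 6 comparisons, and 5 of 24 had one above 1 at 30 min. A fragment described as a cognate HSP70, 1HG0031690.1, was called with the replicate block as higher at 3 h than at 30 min (log2 fold change 0.59, adjusted p = 0.0470), and not without it (0.59 ± 0.281, SE, adjusted p = 0.421). In the same comparison 2 other HSP70 genes were called lower with the block, which called 6.36% of all genes. DESeq2 called 2 HSP70 genes lower and none higher, and 5.49% of all genes.

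**Figure D3:**
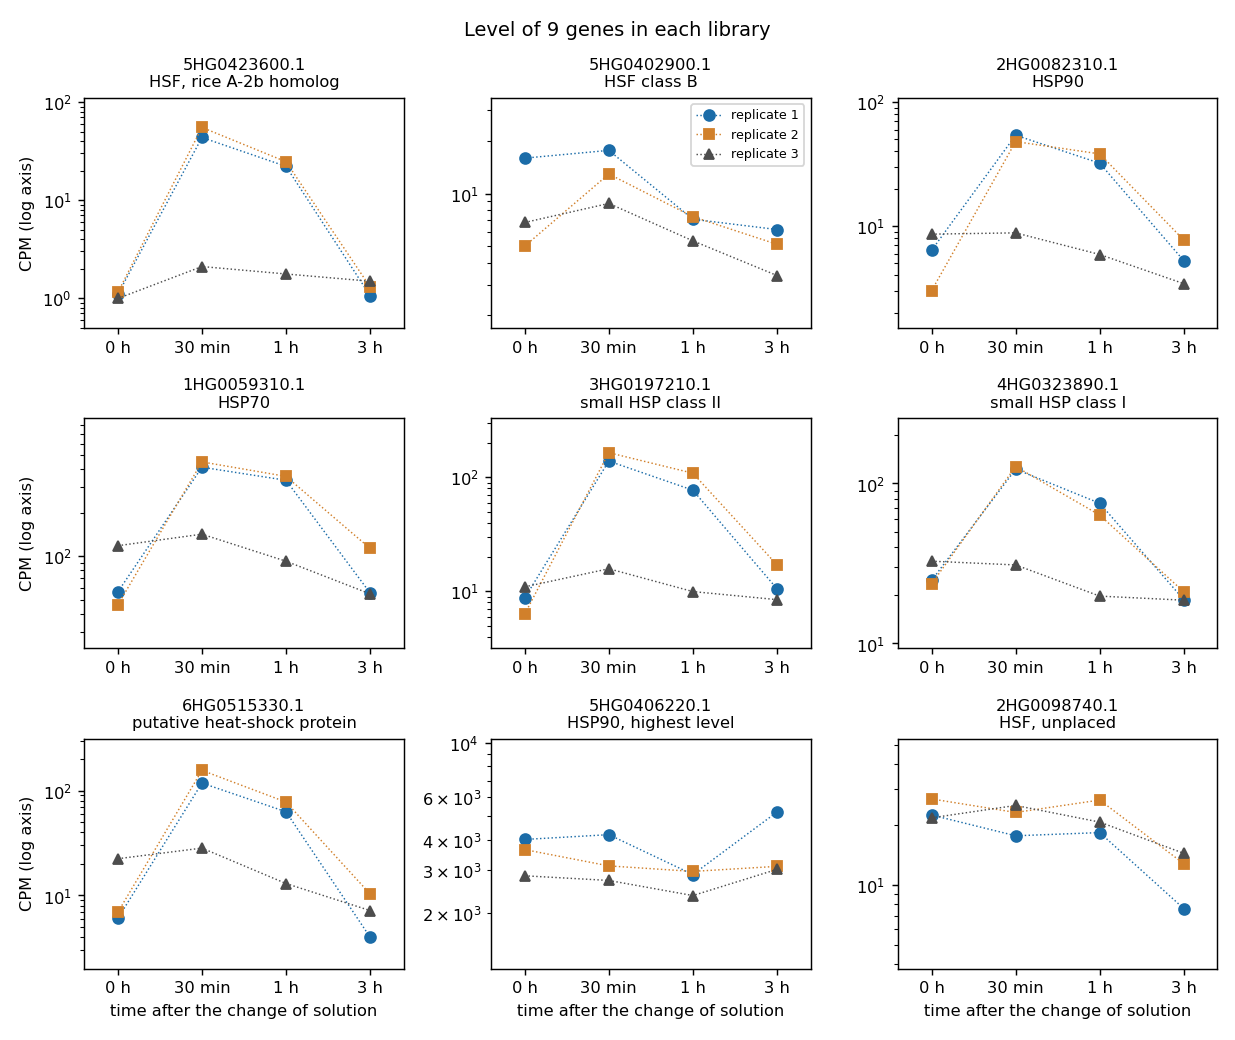
CPM on a log axis of 9 genes in each library at 0 h, 30 min, 1 h and 3 h; colour and symbol give the replicate number, and the dotted lines join libraries of the same number. In the panels of 5HG0423600.1, 2HG0082310.1, 1HG0059310.1, 3HG0197210.1, 4HG0323890.1 and 6HG0515330.1 replicates 1 and 2 peak at 30 min, and replicate 3 lies below them at 30 min and 1 h. The same holds for 5HG0402900.1, where replicate 1 is already high at 0 h. The genes 5HG0406220.1 and 2HG0098740.1 show no such peak.

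Small HSPs were higher at 30 min and 1 h than at 0 h in almost every gene by their log2 fold changes. None was called in either comparison by edgeR (23 at 30 min and 21 at 1 h had an unadjusted p under 0.05), and DESeq2 called 6 at 30 min and 5 at 1 h. At 30 min 36 of the 37 had a log2 fold change above 0 and at 1 h all 37, where 47.6% and 49.5% of all genes did. Their summed level was 437, 363 and 407 CPM at 0 h, 1073, 1199 and 483 CPM at 30 min, 998, 1085 and 447 CPM at 1 h and 437, 576 and 356 CPM at 3 h. At both early times all 3 libraries lay above all 3 at 0 h, replicate 3 by the smallest margin.

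Class II, cytosolic holdases, had the highest median of the classes with more than 2 genes. All 6 genes lie on chromosome 3H, 1 at 53374971 to 53375459, 3 between 54005365 and 54027273 and 2 between 54176190 and 54204500. Their sum was 12, 8.95 and 25.6 CPM at 0 h, 326, 437 and 39.2 CPM at 30 min, 243, 375 and 28.6 CPM at 1 h and 46, 105 and 16.1 CPM at 3 h. At 0 h replicate 3 was above the other two, and at each later time it was the lowest. Their log2 fold changes at 30 min ran from 3.61 to 5.57 and at 1 h from 2.91 to 5.58. The gene with the highest level, 3HG0197210.1, had 8.75, 6.32 and 10.9 CPM at 0 h, 139, 165 and 15.8 CPM at 30 min, 77.2, 109 and 9.95 CPM at 1 h and 10.5, 17.1 and 8.46 CPM at 3 h. All 3 libraries at 30 min were above all 3 at 0 h, replicate 3 by a small margin (log2 fold change 3.61 ± 0.887, SE, adjusted p = 0.498). For 3HG0197320.1 the values were 0.257, 0.0761 and 0.622 CPM at 0 h, of which replicate 2 is below the level of 3 reads, and 18.9, 29 and 1.94 CPM at 30 min, 18.9, 30.4 and 1.08 CPM at 1 h and 5.20, 12.9 and 0.371 CPM at 3 h. Unlike 3HG0197210.1 it was still well above 0 h at 3 h in replicates 1 and 2. The same holds for 3HG0197340.1, with 0.451, 0.190 and 1.58 CPM at 0 h and 10.7, 21.2 and 0.701 at 3 h, the gene with the largest spread between replicates of all 102 (SD of log2 CPM within times 2.34). 3HG0197310.1 and 3HG0197330.1 were at 55.7, 70.4 and 7.63 CPM and at 20.9, 39.7 and 1.68 CPM at 30 min. Without replicate 3, which removes their low libraries, all 6 class II genes were called at 30 min against 0 h, where 0.0849% of all genes were, 5 at 1 h, against 0.0485%, and 3 at 3 h, against 0.602%. Some of them, such as 3HG0197320.1 and 3HG0197340.1, met the read rule only with the help of later times. Calls of such genes are no support for a rise. These genes stand in tandem and may share reads that the authors' counting could assign to the wrong copy, so the split between copies is uncertain.

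Class I, the larger cytosolic group, had a median log2 fold change of 1.49 at 30 min, 1.56 at 1 h and 0.51 at 3 h. The gene 4HG0323890.1 (chromosome 4H, 495196164 to 495196649, plus strand) had 24.8, 23.6 and 32.7 CPM at 0 h, 123, 128 and 31 CPM at 30 min, 75.2, 63.4 and 19.8 CPM at 1 h and 18.8, 21 and 18.6 CPM at 3 h. At 30 min replicates 1 and 2 lay above all 3 libraries at 0 h, and replicate 3 did not. It fell from 30 min to 3 h (log2 fold change -2.27 ± 0.526, SE, adjusted p = 0.0449; lower in 3 of 3 replicates). The tandem gene 3HG0187690.1 was higher in all 3 libraries of each later time than in all 3 at 0 h, with 1.54, 1.29 and 2.09 CPM at 0 h, 14, 18.2 and 2.48 at 30 min and 8.05, 10.7 and 2.27 at 3 h. The group of 3 class I genes in which it lies spans 31.5 kb. Not all of class I differed this much: 6HG0458890.1, the small HSP with the highest level per length, had 114, 59.7 and 62 CPM at 0 h and 121, 65.8 and 77.9 at 30 min, which overlapped (log2 fold change 0.17 ± 0.318, SE, adjusted p = 1). The gene 2HG0141160.1, chosen for mention after its values were seen, had no read in any library at 0 h and 4, 26 and 3 reads at 30 min. Against a floor of 3 reads in each library at 0 h, its mean at 30 min was at least 3.67-fold higher. That bound rests mostly on replicate 2, since replicates 1 and 3, with 4 and 3 reads, lay near the floor. With no read at 0 h the gene met the read rule only through later times, so its rise is no support. Its bounds at all 3 later times lie above the class medians, which are therefore the same with the bound as with the fitted value.

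The 7 mitochondrial genes summed to 30.4 to 46 CPM at 0 h and 50.9 to 146 CPM at 30 min (log2 fold change, median of 7 genes: 1.06). The 2 chloroplast genes summed to 1.48 to 1.87 CPM at 0 h and 3.20 to 20.6 at 30 min. Log2 fold changes were 1.13 for the peroxisomal, 0.42 for the class V and 0.07 for the class VI gene. The 4 genes with AT2G27140 as homolog stayed within 0.5 in all 6 comparisons. Here too the lowest library at 30 min was replicate 3 for the mitochondrial, chloroplast and class II sums. The class V gene went the other way. Its replicate 3 was the highest of the libraries at 30 min, with 27.4 CPM against 19.9 CPM in replicate 2. Replicate 3 was also its highest library at 1 h, with 34.9 CPM against 29.6 CPM in replicate 2.

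**Figure D4:**
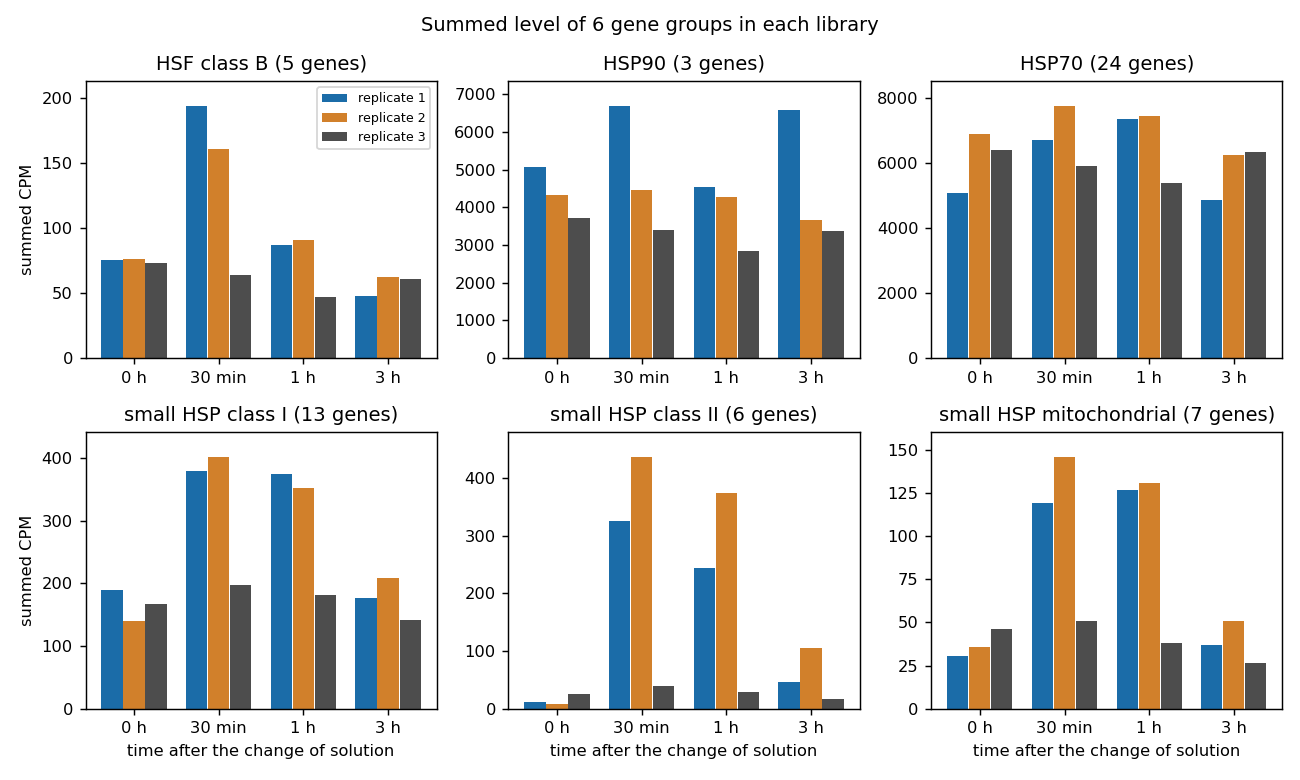
Summed CPM of the genes of 6 families or classes in each library, by time (x axis) and replicate number (colour); every y axis starts at 0. Class II small HSPs go from 8.95 to 25.6 CPM at 0 h to 326 and 437 CPM at 30 min in replicates 1 and 2 and 39.2 CPM in replicate 3, and the sums of HSP90 and HSP70 differ less between times.

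Co-chaperones and regulators changed little. All 4 genes had log2 fold changes within 0.5 in every comparison. 6HG0462740.1, described as an activator of heat shock protein ATPase, had 178, 155 and 175 CPM at 0 h, 224, 226 and 157 at 30 min and 141, 145 and 143 at 3 h, so all 3 libraries at 3 h lay below all 3 at 0 h (log2 fold change -0.24 ± 0.173, SE, adjusted p = 0.852). 7HG0574400.1, described as an activator of a heat shock ATPase of the HSP90 size class, had 105, 139 and 124 CPM at 0 h and 122, 165 and 121 at 30 min. 3HG0242010.1, described as HspQ and with the Clp protease adapter ClpF as Arabidopsis homolog, was between 3.45 and 7.07 CPM in all 12 libraries.

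Among the 9 genes without a class, 6HG0515330.1 is described as a putative heat-shock protein (chromosome 6H, 540609533 to 540610159, plus strand). At 30 min and 1 h it was high in the same libraries as the class II small HSPs. It had 6.05, 6.93 and 22.4 CPM at 0 h, 118, 156 and 28.3 CPM at 30 min, 62.8, 77.7 and 13.0 CPM at 1 h and 4.00, 10.3 and 7.18 CPM at 3 h. All 3 libraries at 30 min lay above all 3 at 0 h, and replicate 3 was highest at 0 h and lowest at 30 min and 1 h. It fell from 30 min to 3 h (log2 fold change -3.81 ± 0.814, SE, adjusted p = 0.0304; lower in 3 of 3 replicates). In contrast 5HG0397460.1 stayed between 79.6 and 122 CPM in all libraries, and 4HG0334490.1 stood at 1.93, 0.990 and 1.75 CPM at 0 h and 1.28, 0.637 and 0.686 at 30 min (log2 fold change -0.85 ± 0.490, SE, adjusted p = 1).

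At 1 h against 0 h, edgeR called 0 of the 102 and 0.0963% of all genes, DESeq2 7 (all higher) and 0.486%. At an unadjusted p under 0.05 stood 31 of the 102, 30 of them higher and 21 of them small HSPs, against 5.75% of all genes in either direction and 3.80% higher. DESeq2 gave no adjusted p for 8 of the 102 here. A log2 fold change above 1 was found for 26 genes, against 2.20% of all genes, and the median was 0.24 against -0.00. Without replicate 3 the count called was 9, against 0.0485% of all genes. Without replicate 1 edgeR called 0 (8 unadjusted) and 0.00399% of all genes, and without replicate 2 it called 0 (7 unadjusted) and 0.00798%. The median of the 25 HSFs was -0.01 at 1 h, while that of the small HSPs was 1.00.

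At 3 h the genes stood on balance near their level at 0 h. The median log2 fold change against 0 h was 0.03, 12 of the 102 had an unadjusted p under 0.05 against 10.4% of all genes, and 15 a log2 fold change above 1 against 3.68%. Of those 15 genes 11 were small HSPs. The replicate block called 2 of the 102, against 5.09% of all genes, and DESeq2 4 of the 102, against 4.46%. Counts this small do not set the 102 apart from all genes. Without replicate 3 the count was 6, against 0.602% of all genes. Without replicate 1 edgeR called 0 (5 at an unadjusted p under 0.05) and 2.02% of all genes, and without replicate 2 it called 0 (1 unadjusted) and 0.439%. The gene added by the block, 2HG0141160.1, had 10, 13 and 6 reads at 3 h and none at 0 h. It met the read rule only through the later times.

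The comparison of 3 h with 30 min asks which genes came down again. It called 3 of the 102 by edgeR, all lower (5HG0423600.1, 6HG0515330.1 and 4HG0323890.1), against 2.68% of all genes in either direction and 1.16% lower. At an unadjusted p under 0.05 stood 32, of which 29 were lower, against 12.6% of all genes and 7.05% lower. The blocked fit called 16, of which 15 were lower, and 6.36% of all genes, and DESeq2 called 18, all lower, and 5.49%. The 16 were 7 small HSPs, 4 HSFs, 3 HSP70, 1 HSP90 and the gene without a class, 6HG0515330.1. A log2 fold change below -1 was found for 32 of the 102 against 3.97% of all genes, and the median was -0.27 against -0.01. All 3 libraries at 3 h lay below all 3 at 30 min for 22 genes, against 8.03% of all genes. Without replicate 3 of 30 min the count called was 13, against 2.36% of all genes, and without replicate 3 of 1 h it was 8, against 2.38%. Without replicate 3 of all times it was 14, against 0.760% of all genes. Without replicate 1 of all times edgeR called 0 (15 unadjusted) and 2.27% of all genes, and without replicate 2 it called 0 (17 unadjusted) and 0.303%. Within replicate 3, 17 of the 102 were more than 1 lower at 3 h than at 30 min, against 37 in replicate 1 and 32 in replicate 2, and 6.63%, 5.44% and 5.41% of all genes.

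Between 3 h and 1 h edgeR called 0 of the 102 (27 at an unadjusted p under 0.05, against 14.9% of all genes) and 2.08% of all genes, the replicate block 8 and 6.79%, and DESeq2 6 and 5.34%. Over the time course 1 of the 102, 5HG0423600.1, was called against 2.30% of all genes, with 37 at an unadjusted p under 0.05 against 11.4%. With the block 10 were called, against 5.80% of all genes, and with DESeq2 20, against 6.37%. Without replicate 3 of all times 18 were called, against 0.651% of all genes. Without replicate 1 edgeR called 0 (11 unadjusted) and 1.63% of all genes, and without replicate 2 it called 0 (5 unadjusted) and 0.259%.

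The 32 genes with a log2 fold change above 1 at 30 min had a median level at 0 h of 2.98 CPM per kilobase of coding length, and the other 70 of 12.4. This is a description, since a low level at 0 h also enters the fold change. The highest mean of the 4 times was at 30 min for 47 of the 102 (46.1%) and for 19.99% of all genes. In 41 of the 102 all 6 log2 fold changes were within 0.5. The spread between replicates, as the SD of log2 CPM within times, had a median of 0.479 over the 102 and 0.315 over all genes, and exceeded 1 in 19 of the 102 (18.6%) and in 3.89% of all genes. In the genome, 23 of the 102 stood in 10 groups of neighbours with gaps of at most 100 kb.

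Other chaperone genes outside the rule were looked at by their descriptions. At 30 min none of 143 DnaJ, 44 chaperonin, 42 Clp, 16 BAG, 41 prolyl isomerase, 21 endoplasmic reticulum folding, 66 proteasome and 28 ubiquitin genes was called, with medians between -0.10 and 0.11 on the log2 scale. Nor was any of 4 ascorbate peroxidase, 11 universal stress protein and 3 multiprotein bridging factor genes. At 3 h against 0 h 2 DnaJ genes were called higher and 1 lower, 1 BAG gene higher, 1 Clp gene lower and 1 chaperonin gene lower. Single genes in these lists, picked after their values were seen, were high at 30 min in replicates 1 and 2. The ClpB gene 1HG0062440.1, of the HSP100 disaggregases, was at 2.25, 2.93 and 8.94 CPM at 0 h and 19.9, 78.9 and 11.4 at 30 min (log2 fold change 2.93 ± 0.837, SE, adjusted p = 0.692). The multiprotein bridging factor gene 7HG0593070.1, a group with a heat-induced co-activator in Arabidopsis, was at 7.21, 4.15 and 9.51 CPM at 0 h and 57.7, 38.8 and 8.62 at 30 min (log2 fold change 2.33 ± 0.694, SE, adjusted p = 0.728). In both, replicates 1 and 2 at 30 min lay above all 3 libraries at 0 h and replicate 3 lay near its own 0 h value. The other 2 bridging factor genes differed by -0.02 and 0.04 on the log2 scale at 30 min. The other tested ClpB genes ran from -0.47 (4HG0296170.1) to 1.96 (3HG0239390.1), and most lay below 0. The most abundant ClpB gene, 2HG0135340.1, differed by -0.03.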

How the data were processed

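Gene counts were deposited by the authors as whole reads per gene for each library, with a second deposited table of total and assigned reads. Tools listed in the submitters' processing notes are HISAT2 2.0.5, Subread 1.5.2, SAMtools and bcl2fastq. The sources used here do not give the genome build or the strand and multi-mapping settings. Groups were taken from the labels, and p-values measure the spread between the 3 libraries of a time.

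Genes passing filterByExpr (minimum count 10, minimum total 15; 24920 genes) were tested in R 4.3.3 with edgeR 4.0.16 (TMM, quasi-likelihood F-test, 1 factor of 4 times, 8 residual degrees of freedom), with Benjamini-Hochberg adjustment over all of them and a call at an adjusted p under 0.05. DESeq2 1.42.0 was an alternative. Standard errors are the log2 fold change divided by the root of F, and log2 CPM used a prior count of 2. The scripts were tested on simulated data. Floors cover counting error only, while the standard errors also include the spread between libraries.

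Libraries with the same replicate number deviated together from their group means in 17 of 18 pairs (correlation over 0.1; range 0.0958 to 0.674), and the exception was a pair of 1 h and 0 h. The pairing comes from the numbers in the labels. The blocked fit is therefore given where it changes a call.

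The 102 genes, the families and the lists of other genes were chosen with earlier results of these data known. Named genes were those called, the 6 largest and 6 smallest log2 fold changes against 0 h at a mean of at least 1 CPM, the 2 highest per length and the 2 with the smallest p in each family, and the 5 with the largest spread. Alternatives were another scaling, other filters, DESeq2, the block, fits of 2 times and leaving out libraries. No gene described as galactinol synthase was found. The 16 root hair genes (5 tested) summed to 95.8 to 127 CPM.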

Additional observations from a re-analysis of the deposited data

How the results depend on the processing

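Counts of the 102 genes called were the same with RLE scaling and with a minimum of 10 reads in 3 libraries. DESeq2 called 10 at 30 min, 7 at 1 h and 4 at 3 h against 0 h, 18 at 3 h against 30 min, 6 at 3 h against 1 h and 20 over the time course. The replicate block called 2 at 3 h against 0 h, 16 at 3 h against 30 min, 8 at 3 h against 1 h and 10 over the time course, and 0 at 30 min and at 1 h. Fits of only the 2 times compared called 0 at 3 h against 0 h and 1 at 3 h against 30 min, and no filter on low counts called 6 at 3 h against 30 min and 5 over the time course. Leaving out a library or a replicate number gave 0 to 15 at 30 min, 0 to 9 at 1 h and 0 to 6 at 3 h against 0 h, 0 to 14 at 3 h against 30 min, 0 to 5 at 3 h against 1 h and 0 to 18 over the time course, with the highest values without replicate 3. The cause was not tested. Adjusted p (edgeR) then ranged from 0.00126 to 0.562 for 5HG0423600.1 (3 h against 30 min), 0.0104 to 0.354 for 6HG0515330.1, 0.00480 to 0.559 for 4HG0323890.1 and 0.0425 to 0.414 for 2HG0098740.1.

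Log2 fold changes that changed sign ranged over the leave-outs from -0.93 to 0.14 for 1HG0067240.1 at 30 min, -0.57 to 0.0496 for 4HG0348600.1 at 30 min, -0.87 to 0.16 for 5HG0402900.1 at 1 h and -1.37 to 0.16 for 6HG0515330.1 at 3 h, none of them called. Genes near the floor of 3 reads are limited by depth.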
